A study of Mus musculus with 22 samples.

Results

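Interferons and interleukins act on a dendritic cell only through the receptor chains that the cell carries. The 10 receptor genes Ifnar1, Ifnar2, Ifngr1, Ifngr2, Il4ra, Il13ra1, Il6ra, Il10ra, Il10rb and Il21r were taken by name from the gene count table, where they are 10 of 34047 genes. The chromatin windows given to them were taken from the table of accessible windows, where they are 111 of 177956 windows. The rule that names them uses no measured value, but it was set with earlier results of these data known.

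Conventional dendritic cells (cDCs) were sorted from naive Tbx21RFP-cre mice aged 6 to 10 weeks. The study used mice of both sexes, and the sex behind each library is not given in the sources used here. Each RNA library pooled the cells of 2 mice, and the number of mice behind an ATAC library is not given in the sources used here. All groups were homozygous for this knock-in allele, in which red fluorescent protein (RFP) and Cre mark cells that express T-bet, the transcription factor encoded by Tbx21. Type 1 cells (cDC1s, XCR1+) and type 2 cells (cDC2s, CD11b+), the latter divided into T-bet+ (RFP+) and T-bet- (RFP-), came from the spleen or the mesenteric lymph nodes (MLN). RNA was sequenced in 16 libraries: 3 of each subset from the spleen, and 3 of cDC1s, 2 of T-bet+ cDC2s and 2 of T-bet- cDC2s from the MLN. Accessible chromatin was measured by ATAC-seq, which counts the sites where a transposase can cut, in 6 spleen libraries, 2 per subset, of 50000 cells each. No stimulus was given to the cells. The study divides MLN cells into migratory and resident by MHCII and CD11c, but the gate described for these libraries did not. MLN values can therefore hold both kinds of cell, and their part in the values was not tested.

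All 10 genes encode chains of the class of cytokine receptors that signal through Janus kinases (JAKs) and STAT transcription factors. Each receptor pairs at least a pair of chains: IFNAR1 with IFNAR2 for type I interferon, IFNGR1 with IFNGR2 for interferon gamma, and IL-10RA with IL-10RB for IL-10. IL-4RA joins either the common gamma chain or IL-13RA1, the latter pair binding both IL-4 and IL-13. IL-6RA binds IL-6 and then gp130 (Il6st), and IL-21R joins the common gamma chain (Il2rg). In dendritic cells type I interferon and interferon gamma favor maturation and cross-presentation, whereas IL-10 restrains activation.

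The genes lie in 6 places in the mouse genome (GRCm38.p6, mm10), and 6 of them are neighbors. On chromosome 16, Ifnar2 (chr16:91372783-91405589), Il10rb (chr16:91406164-91425834), Ifnar1 (chr16:91485238-91507441) and Ifngr2 (chr16:91547072-91565623) follow one another on the plus strand with 0 other coding genes between them. Only 575 bases separate the end of Ifnar2 from the start of Il10rb. On chromosome 7, Il21r (chr7:125603429-125633570) starts 23955 bases after the end of Il4ra (chr7:125552120-125579474). The others are Ifngr1 (chr10:19591949-19610229), Il13ra1 (chrX:36112110-36171259), Il6ra (chr3:89864059-89913196, minus strand) and Il10ra (chr9:45253837-45269149, minus strand). Whether read counting used strand is not given in the sources used here. The annotation places antisense genes over Il4ra and Il6ra and a read-through transcript over Ifnar2 and Il10rb, so reads of these could not be told apart from reads of the receptors.

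Chromatin windows of 150 bases carry several of the differences described below, and 6 of them are shown. Up to 3 called windows were described for each gene, and these 6 had the largest called differences between T-bet+ and T-bet- cDC2s among them. None overlaps an exon. Sequences are from the plus strand of GRCm38.p6, and capitals mark the match to a motif.
Il13ra1 intron, chrX:36142129-36142278: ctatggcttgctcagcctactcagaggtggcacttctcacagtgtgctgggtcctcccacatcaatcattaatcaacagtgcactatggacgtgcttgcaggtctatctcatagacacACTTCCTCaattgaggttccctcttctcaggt
Il10rb intron, chr16:91413181-91413330: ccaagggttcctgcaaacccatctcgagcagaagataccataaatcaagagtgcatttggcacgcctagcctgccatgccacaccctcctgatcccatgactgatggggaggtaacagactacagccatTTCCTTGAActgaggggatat
Il6ra intron, chr3:89887683-89887832: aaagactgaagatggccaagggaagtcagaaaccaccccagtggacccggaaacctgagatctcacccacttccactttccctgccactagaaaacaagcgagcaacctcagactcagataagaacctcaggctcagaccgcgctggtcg
Ifngr1 intron, chr10:19596777-19596926: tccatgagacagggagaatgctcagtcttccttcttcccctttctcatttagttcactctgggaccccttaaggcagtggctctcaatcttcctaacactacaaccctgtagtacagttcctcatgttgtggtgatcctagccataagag
Ifnar2 upstream, chr16:91366727-91366876: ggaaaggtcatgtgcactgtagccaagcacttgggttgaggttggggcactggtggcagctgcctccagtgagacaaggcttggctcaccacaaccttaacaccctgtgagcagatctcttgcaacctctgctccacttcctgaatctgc
Il21r intron, chr7:125620178-125620327: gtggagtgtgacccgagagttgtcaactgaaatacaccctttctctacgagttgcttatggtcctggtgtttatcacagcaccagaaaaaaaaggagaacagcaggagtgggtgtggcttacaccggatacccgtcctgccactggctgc
Each window was searched on both strands for 8 short motifs. The Il13ra1 window held the PU.1 letters GAGGAAGT on the minus strand, which 5.5% of all 177956 windows hold. The Il10rb window held the STAT (GAS) letters TTCNNNGAA on the plus strand, which 4.29% of all windows hold. The other 4 windows held none of the 8. Over the 111 receptor windows, 6 held a GAS match, 6 an interferon response element (ISRE, GAAANNGAA), 7 a PU.1 match and 0 a T-box match (AGGTGTNA). The shares of all windows were 5.61% for the ISRE and 1.92% for the T-box. The remaining motifs were Runx (TGTGGTT, in 9 receptor windows against 5.23% of all windows), C/EBP (TTGCNNAA, in 9 against 5.89%), RORE (TAGGTCA, in 1 against 1.57%) and NF-kB (GGGANTTTC, in 2 against 0.892%). ISRE and GAS letters can overlap each other.

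The RNA libraries held 20993220 to 29006549 counts and the ATAC libraries 7270164 to 10081555 reads in windows. Subset identity followed the labels: Xcr1 was at 445 CPM (counts scaled to library size) or above in all 6 cDC1 libraries and at most 34.0 CPM elsewhere, and Tbx21 was higher in each T-bet+ library than in any other library of its tissue (7.19 and 2.93 CPM against at most 0.918 CPM in the MLN). The sum of 3 T-bet+ cDC2 markers (Tbx21, Dtx1 and Esam) set the spleen T-bet+ libraries apart (449.6 to 504 CPM, against at most 58.7 CPM in other spleen libraries). It did not set the MLN T-bet+ libraries apart (102 to 142 CPM, against 123 to 148 CPM in T-bet- cDC2s and 46.2 to 135 CPM in cDC1s). T-bet- cDC2s also held the highest summed level of 6 monocyte and macrophage markers (874 to 1213 CPM in the spleen, 1084 to 1822 CPM in the MLN, against at most 499 CPM in any other group). Of 5 B cell markers, Cd79b reached 110 CPM in T-bet- cDC2s, where the sum of all 5 was at most 117 CPM. In the spleen T-bet- libraries 2 of the 5 stayed under 1 CPM. Markers of several kinds differed between tissues. The sum of 4 neutrophil markers (S100a8, S100a9, Camp and Mpo) was 19.3 to 68.8 CPM in the spleen and 0 to 5.90 CPM in the MLN. The sum of 4 red cell markers (Hba-a1, Hbb-bs, Hbb-bt and Alas2) was 3.29 to 11.8 CPM in the spleen and 0.146 to 0.434 CPM in the MLN. The sum of 4 T cell markers (Cd3e, Cd3d, Cd3g and Cd247) was 1.70 to 2.13 CPM in spleen and 6.82 to 23.7 CPM in MLN cDC1s, 0.514 to 1.44 and 6.66 to 9.08 CPM in T-bet- cDC2s, and 0.238 to 1.37 and 1.84 to 8.10 CPM in T-bet+ cDC2s, with Cd3g at 0 in all spleen T-bet+ libraries. The sum of 4 markers of all cDCs (Flt3, Zbtb46, H2-Ab1 and Itgax) was 19990 to 35800 CPM in the spleen and 8588 to 20250 CPM in the MLN. The part of these genes in the receptor values was not tested. Within each tissue the libraries were divided into 2 classes by how strongly they favored GC-rich transcripts, with a fixed cut at a correlation of 0.1. Spearman's rho between a gene's deviation from the tissue mean and the highest GC content of any 100-base stretch of its transcript was 0.190 to 0.325 in 6 spleen libraries and -0.457 to -0.302 in the other 3 (cDC1 replicate 3 and T-bet- replicates 1 and 2). It was 0.203 to 0.249 in 3 MLN libraries and -0.313 to -0.0344 in the other 4. Of the latter, cDC1 replicate 1 (-0.0344) and T-bet+ replicate 1 (-0.0604) lay near 0, so the lower MLN class is not uniform. All T-bet+ spleen libraries were in the higher class and both T-bet+ MLN libraries in the lower class, each class being relative to the mean of its own tissue.

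Levels between genes were compared as RPKM, CPM divided by the union exon length in kilobases. Ifngr1 and Il10ra were the most abundant receptor transcripts of spleen cDCs. Ifngr1 stood at 563 ± 38.0 RPKM in cDC1s, 346 ± 42.0 RPKM in T-bet+ cDC2s and 410 ± 38.9 RPKM in T-bet- cDC2s (SD, n = 3 each). Il10ra followed at 187 ± 40.9, 222 ± 6.36 and 251 ± 37.0 RPKM, and in no spleen subset did the libraries of either gene overlap those of its neighbor in the order.

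The third place differed between the spleen subsets. In T-bet+ and T-bet- cDC2s it was held by Il21r, at 124 ± 8.33 and 84.9 ± 14.4 RPKM, without overlap with the next gene. In spleen cDC1s neighbors in the order overlapped from the third place, Ifngr2 (43.6 ± 27.5 RPKM), down to the ninth, Il13ra1 (15.1 ± 5.22 RPKM). Il6ra was last in all 6 groups, at 2.196 to 5.25 RPKM in the spleen and 0.717 to 1.69 RPKM in the MLN.

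In the MLN the order was less separated. In MLN cDC1s Ifngr1 (228 ± 99.0 RPKM), Il21r (219 ± 123 RPKM), Il4ra (213 ± 102 RPKM) and Il10ra (148 ± 30.5 RPKM) led, and each overlapped its neighbors among these (SD, n = 3). In MLN T-bet- cDC2s Il21r came first at 166 ± 7.09 RPKM, above Il10ra at 154 ± 6.73 RPKM and Ifngr1 at 150 ± 0.715 RPKM (SD, n = 2). In MLN T-bet+ cDC2s the first 3 were Ifngr1 (208 ± 101 RPKM), Il10ra (153 ± 24.0 RPKM) and Il21r (114 ± 16.2 RPKM). In bulk RNA, fewer cells expressing a gene and less RNA per cell cannot be told apart.

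**Figure D1:**
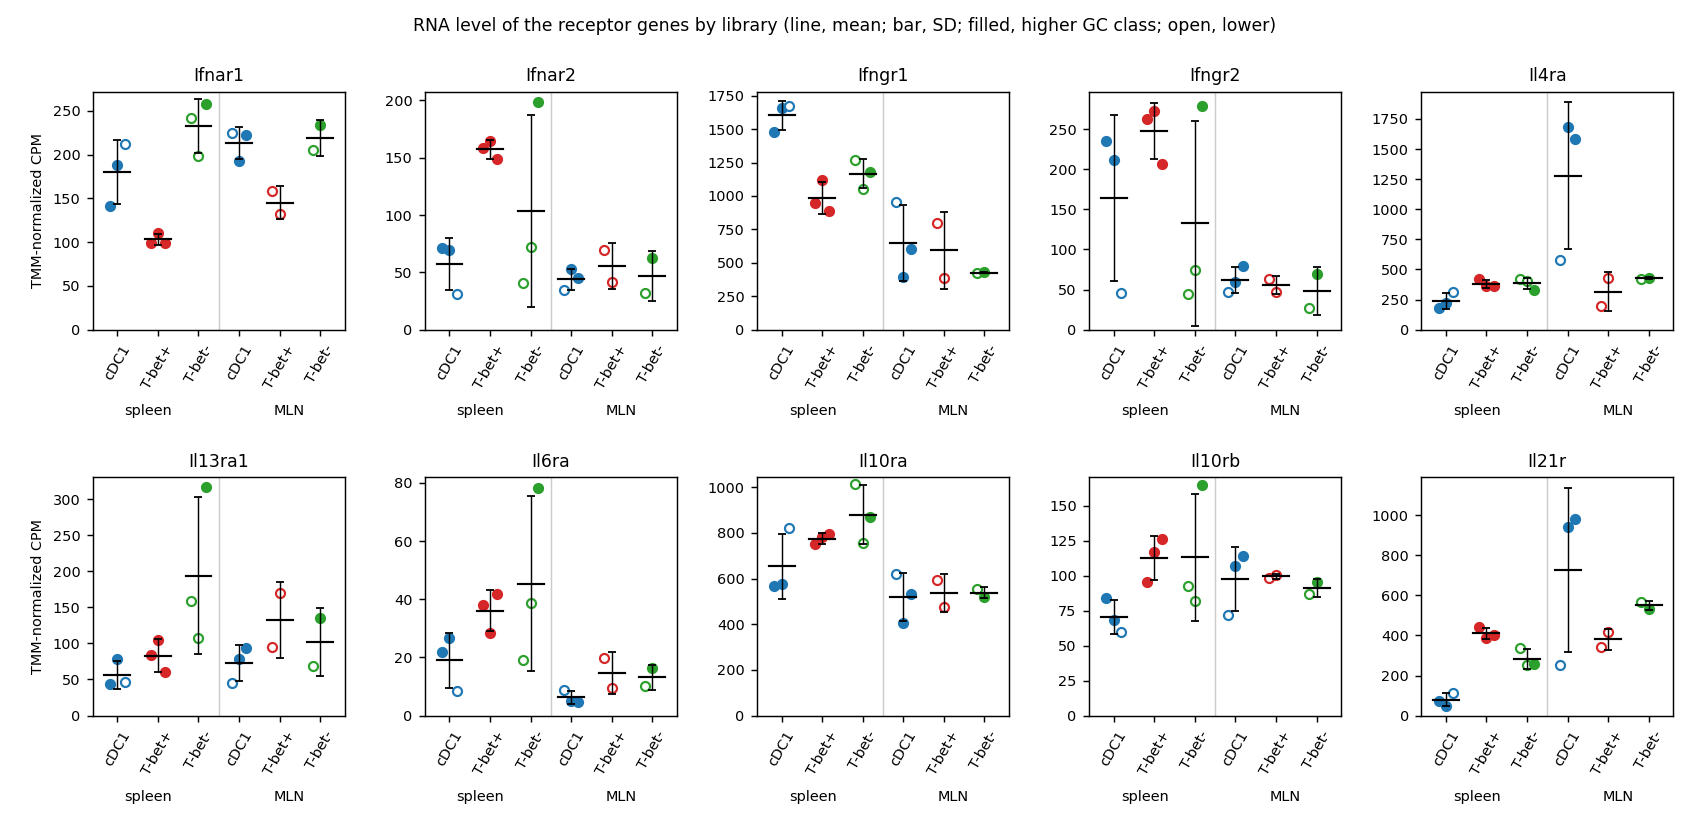
RNA level of each receptor gene in every library, in TMM-normalized CPM on the vertical axis, by subset and tissue on the horizontal axis; lines are means, bars are SD, filled points are libraries of the higher GC class and open points of the lower. Il21r separates spleen cDC1s (at most 114 CPM) from both spleen cDC2 subsets (at least 254 CPM), Il4ra is highest in MLN cDC1s, and Ifngr2 and Ifnar2 differ by library class within spleen groups.

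Differences were tested on counts over all genes with edgeR's quasi-likelihood test and called at an adjusted p under 0.05. All 10 receptor genes passed the filter on low counts in every comparison. In the spleen, 1 of 10 was called between T-bet+ and T-bet- cDC2s (Ifnar1), where 5.38% of all 14377 genes tested were called. Between T-bet+ cDC2s and cDC1s 3 were called (Ifnar1, Ifngr1 and Il21r), against 18.2% of all genes. Between T-bet- cDC2s and cDC1s 2 were called (Il13ra1 and Il21r), against 15.9% of all genes. The median log2 fold change of the 10 genes was -0.10, 0.64 and 0.69 in these 3 comparisons, and that of all genes tested -0.01, 0.03 and -0.01. The comparisons with cDC1s share the cDC1 libraries.

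In the MLN no receptor gene was called by edgeR in any of the 3 comparisons of subsets. Of all 15298 genes tested, 0% were called between T-bet+ and T-bet- cDC2s, 6.22% between T-bet+ cDC2s and cDC1s and 5.79% between T-bet- cDC2s and cDC1s. At an unadjusted p under 0.05 the receptor genes counted 1, 2 and 2, against 9.44%, 22.2% and 19.6% of all genes. DESeq2 called 0, 1 and 1, the 1 being Il4ra both times, against 1.98%, 11.8% and 9.84%. Between MLN and spleen 3 receptor genes were called in cDC1s (Ifngr1, Il4ra and Il21r), against 11.7% of all 16795 genes tested. In T-bet- cDC2s 1 was called (Ifngr1), against 5.95% of all genes. In T-bet+ cDC2s 0 were called by edgeR, against 5.09% of all genes, with 6 at an unadjusted p under 0.05 (26.6% of all genes) and 1 (Ifngr2) by DESeq2 (16.1% of all genes). Each tissue was a set of libraries of its own, so tissue and any difference in handling cannot be told apart.

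**Figure D2:**
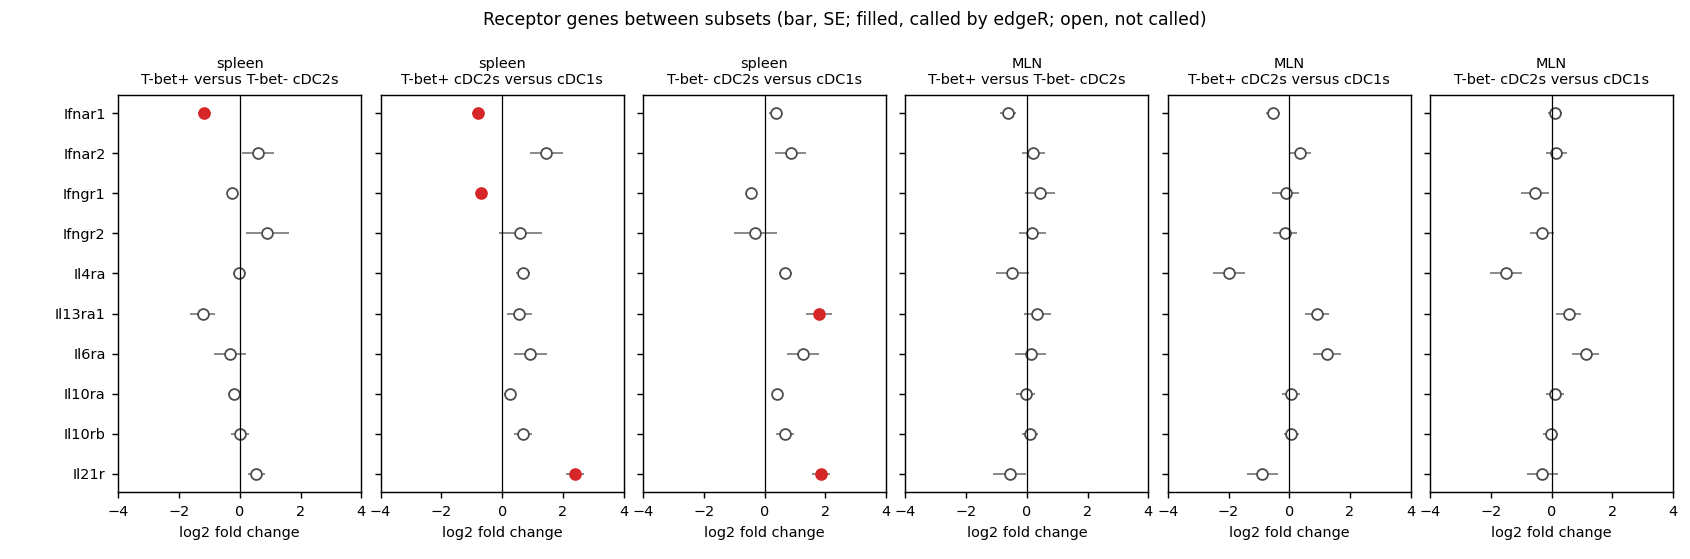
Log2 fold change of each receptor gene between subsets (horizontal axis) in the spleen and the MLN; bars are SE, filled points passed an adjusted p under 0.05 by edgeR and open points did not. Il21r in the spleen has the largest called difference (2.39 and 1.85 against cDC1s), and every MLN point is open.

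Of the type I interferon receptor chains, only Ifnar1 was called by edgeR between subsets, and only in the spleen. Ifnar1, the chain bound by TYK2, was lowest in T-bet+ cDC2s of both tissues. In the spleen it stood at 99.4, 111 and 99.5 CPM in T-bet+ cDC2s, 242, 198 and 258 CPM in T-bet- cDC2s and 141, 188 and 212 CPM in cDC1s. The T-bet+ libraries lay below all others. T-bet+ cDC2s held 2.25-fold less Ifnar1 than T-bet- cDC2s (log2 fold change -1.17, SE 0.21, adjusted p = 0.0121) and 1.74-fold less than cDC1s (log2 fold change -0.80, SE 0.21, adjusted p = 0.0240). These calls rested on all 3 T-bet+ libraries: with any 1 of them left out, the first adjusted p was 0.0537 to 0.0678 and the second 0.0631 to 0.0945. The second call was also lost without cDC1 replicate 2 (adjusted p = 0.0590) or 3 (adjusted p = 0.0885) and with no filter on low counts (0.0522). With the replicate number as a block the adjusted p were 0.0510 and 0.0671. DESeq2 gave 1.741e-04 and 0.0102, and over the 16 alternatives run the first and second adjusted p ranged from 1.741e-04 to 0.0678 and from 0.0102 to 0.0945.

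In the MLN Ifnar1 stood at 158 and 132 CPM in T-bet+ cDC2s, 205 and 234 CPM in T-bet- cDC2s and 224, 193 and 223 CPM in cDC1s. The T-bet+ libraries again lay below the others, and neither difference was called (log2 fold change -0.63, SE 0.26, adjusted p = 0.505, against T-bet- cDC2s, and -0.53, SE 0.24, adjusted p = 0.242, against cDC1s). The difference between tissues in the T-bet+ against T-bet- contrast was -0.58 (SE 0.31, adjusted p = 0.949).

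Ifnar2, the chain that binds interferon most tightly and carries STAT2, went the other way in spleen T-bet+ cDC2s against cDC1s, but not past the threshold. It stood at 158, 165 and 149 CPM in spleen T-bet+ cDC2s, 71.2, 69.5 and 31.5 CPM in spleen cDC1s and 40.7, 72.2 and 199 CPM in spleen T-bet- cDC2s. The T-bet+ and cDC1 libraries did not overlap, and the T-bet- libraries covered the range of both. The log2 fold change against cDC1s was 1.46 (SE 0.53, adjusted p = 0.0921) in T-bet+ and 0.86 (SE 0.52, adjusted p = 0.330) in T-bet- cDC2s. DESeq2 called the first (adjusted p = 0.0358). With library class as a term these were 1.05 (adjusted p = 0.0146) and 1.17 (adjusted p = 0.00731), and over all 16 alternatives of each the adjusted p ranged from 0.000611 to 0.228 and from 0.00731 to 0.914. In the MLN Ifnar2 ranged from 31.7 to 69.6 CPM and every pair of groups overlapped.

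The interferon gamma receptor was led by Ifngr1, its ligand-binding chain, which was highest in spleen cDC1s. Ifngr1 stood at 1479, 1661 and 1670 CPM in spleen cDC1s, 945, 1118 and 889 CPM in T-bet+ cDC2s and 1270, 1050 and 1181 CPM in T-bet- cDC2s. The cDC1 libraries lay above all cDC2 libraries. Ifngr1 was 1.63-fold lower in T-bet+ cDC2s (log2 fold change -0.70, SE 0.16, adjusted p = 0.0123), a call lost without T-bet+ replicate 1 (adjusted p = 0.0598) or 3 (adjusted p = 0.0622) and held in the other 14 of 16 alternatives, with adjusted p from 0.00686. In T-bet- cDC2s the log2 fold change was -0.46 (SE 0.16, adjusted p = 0.0809).

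Ifngr1 was lower in the MLN than in the spleen. It stood at 952, 394 and 601 CPM in MLN cDC1s, 796 and 390 CPM in T-bet+ cDC2s and 425 and 428 CPM in T-bet- cDC2s. In each subset the MLN libraries lay below the spleen libraries. In cDC1s the fall was 2.47-fold, a log2 fold change of -1.31 with an SE of 0.30 (adjusted p = 0.0152). In T-bet- cDC2s it was 2.73-fold, a log2 fold change of -1.45 with an SE of 0.35 (adjusted p = 0.0258). In T-bet+ cDC2s the log2 fold change was -0.73 (SE 0.34, adjusted p = 0.182). The cDC1 call was lost without spleen replicate 2 (adjusted p = 0.0559) or MLN replicate 2 (0.0676) or 3 (0.0687). The T-bet- call was lost without spleen replicate 1 (adjusted p = 0.0635) or 2 (0.0608) or MLN replicate 1 (0.208) or 2 (0.156). The lowest adjusted p over the 21 alternatives of each was 1.791e-04 and 9.43e-04.

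Ifngr2, the chain that carries JAK2, differed more between library classes than between subsets. In the spleen it stood at 235, 212 and 45.3 CPM in cDC1s, 263, 273 and 207 CPM in T-bet+ cDC2s and 44.0, 74.7 and 279 CPM in T-bet- cDC2s. The 6 libraries of the higher class lay between 207 and 279 CPM and the 3 of the lower class between 44.0 and 74.7 CPM, a ratio of medians of 5.50. For Ifnar2 the same ratio was 3.78, with overlap, and for the other 8 genes in the spleen 0.594 to 1.74. No comparison of Ifngr2 between spleen subsets was called (adjusted p = 0.552 to 0.817), and the part of library class was not removed from its values in CPM. In the MLN Ifngr2 ranged from 26.7 to 79.3 CPM. Against the spleen its log2 fold change was -2.17 (SE 0.77, adjusted p = 0.103) in T-bet+ cDC2s, where DESeq2 called it (adjusted p = 0.0216). The MLN cDC1 libraries of the higher class held 59.6 and 79.3 CPM. Class is relative to the mean of each tissue, so the classes of the 2 tissues cannot be matched with each other.

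Il4ra, the signaling chain for IL-4 and IL-13, was highest in MLN cDC1s. It stood at 578, 1683 and 1579 CPM there, against 182, 219 and 313 CPM in spleen cDC1s. The groups did not overlap, and MLN replicate 1 lay apart from the other 2. Il4ra was 5.38-fold higher in MLN cDC1s (log2 fold change 2.43, SE 0.38, adjusted p = 0.00225), and this was called in 21 of 21 alternatives, with adjusted p from 9.387e-13 to 0.0206. Library class was not a term in any alternative of the comparisons between tissues. Over the MLN libraries the ratio of Il4ra medians of the higher to the lower class was 3.71, with overlap.

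In the cDC2s the tissue difference in Il4ra was not called. T-bet+ cDC2s held 419, 359 and 360 CPM in the spleen and 199 and 428 CPM in the MLN, with overlap (log2 fold change -0.28, SE 0.40, adjusted p = 0.689). T-bet- cDC2s held 420, 403 and 328 CPM in the spleen and 423 and 432 CPM in the MLN (log2 fold change 0.16, SE 0.40, adjusted p = 0.843). The difference between these tissue effects and that of cDC1s was tested after the values were seen. As the cDC1 effect minus the cDC2 effect it was 2.70 (SE 0.56, adjusted p = 0.0954) against T-bet+ and 2.27 (SE 0.55, adjusted p = 0.247) against T-bet- cDC2s by edgeR. DESeq2 gave adjusted p of 0.00239 and 0.0245, and edgeR without MLN cDC1 replicate 1 gave 0.00681 and 0.0295. Over all 21 alternatives of each they ranged from 2.873e-06 to 0.259 and from 4.13e-04 to 1.

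Within the MLN, Il4ra was 3.94-fold lower in T-bet+ cDC2s than in cDC1s (log2 fold change -1.98 with an SE of 0.53, adjusted p = 0.0694) and 2.83-fold lower in T-bet- cDC2s (log2 fold change -1.50, SE 0.52, adjusted p = 0.151). Neither passed by edgeR, although the libraries did not overlap. With library class as a term both were smaller, at -1.37 (adjusted p = 0.302) and -1.22 (adjusted p = 0.244). DESeq2 gave adjusted p of 0.00107 and 0.0226, edgeR without MLN cDC1 replicate 1 gave 0.0225 and 0.0492, and edgeR with the number in the library names as a block gave 0.00107 and 8.06e-04, within ranges of 1.39e-04 to 0.302 and 8.06e-04 to 0.491 over the 15 alternatives of each. In the spleen the direction was opposite, at 0.68 (SE 0.23) in T-bet+ and 0.69 (SE 0.23) in T-bet- cDC2s on the log2 scale. The adjusted p were 0.0677 and 0.06998, also not called and also without overlap. These 2 were called with library class as a term (adjusted p = 0.00528 and 0.0486) and without cDC1 replicate 3 (adjusted p = 0.0212 and 0.0213), the second also without T-bet- replicate 3 (adjusted p = 0.0480). Over 16 alternatives they reached 0.255 and 0.262.

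Il13ra1, which completes the second form of the IL-4 receptor, was highest in spleen T-bet- cDC2s. It stood at 159, 107 and 316 CPM there, 83.6, 105 and 59.9 CPM in T-bet+ cDC2s and 43.0, 78.4 and 47.1 CPM in cDC1s. The T-bet- libraries lay above all others, with a wide spread among themselves. Il13ra1 was 3.45-fold higher than in cDC1s (log2 fold change 1.79 with an SE of 0.42, adjusted p = 0.0181). The call was lost with a replicate block (adjusted p = 0.0569), with only the 2 subsets compared (0.0552), without cDC1 replicate 1 (0.0723) or 3 (0.0567), and without T-bet- replicate 3, where the log2 fold change was 1.1995 (adjusted p = 0.0522). The lowest adjusted p over its 16 alternatives was 6.437e-06. Against T-bet- cDC2s, T-bet+ cDC2s were lower by a log2 fold change of -1.22 with an SE of 0.42 (adjusted p = 0.141). Library class as a term took this to -1.65 (adjusted p = 0.0274). The range over the alternatives was 0.00658 to 0.372. In the MLN Il13ra1 ranged from 44.8 to 169 CPM and the cDC2 groups overlapped. With the number in the library names as a block, T-bet+ cDC2s were called above cDC1s there (1.19, adjusted p = 0.00895).

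Il6ra, the ligand-binding chain for IL-6, was the least abundant of the 10. In the spleen it stood at 21.8, 26.7 and 8.51 CPM in cDC1s, 38.1, 28.4 and 41.8 CPM in T-bet+ cDC2s and 19.1, 38.8 and 78.2 CPM in T-bet- cDC2s. In the MLN it stood at 8.85, 5.16 and 4.59 CPM in cDC1s, 19.7 and 9.45 CPM in T-bet+ cDC2s and 9.99 and 16.2 CPM in T-bet- cDC2s. In both tissues the T-bet+ libraries lay above the cDC1 libraries, and Il6ra was not called by edgeR in any comparison as designed. In the spleen T-bet- cDC2s were called above cDC1s with library class as a term (log2 fold change 1.73, adjusted p = 0.00255, against 1.26 and 0.156 without it) and with no filter on low counts (0.0141). In the MLN both T-bet+ (1.12, adjusted p = 0.0344) and T-bet- cDC2s (1.48, adjusted p = 0.0128) were called above cDC1s with the number in the library names as a block, against adjusted p of 0.159 and 0.223 without it. The first was also called with no filter (0.0486). The log2 fold change of Il6ra from spleen to MLN was -1.61 (SE 0.52, adjusted p = 0.0577) in cDC1s, -1.79 (SE 0.60, adjusted p = 0.0930) in T-bet- cDC2s and -1.31 (SE 0.59, adjusted p = 0.174) in T-bet+ cDC2s. DESeq2 called the first 2 (adjusted p = 0.0133 and 0.0201), and over 21 alternatives of each the adjusted p ranged from 4.303e-04 to 0.190 and from 0.00155 to 0.474.

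Neither chain of the IL-10 receptor was called by edgeR in any comparison as designed. Il10ra, the ligand-binding chain, stood at 567, 576 and 819 CPM in spleen cDC1s, 751, 780 and 795 CPM in T-bet+ cDC2s and 1013, 755 and 870 CPM in T-bet- cDC2s. In the MLN all 7 libraries lay between 407 and 619 CPM. The log2 fold change from spleen to MLN was -0.33 (SE 0.21) in cDC1s, -0.71 (SE 0.24) in T-bet- and -0.53 (SE 0.24) in T-bet+ cDC2s, with adjusted p of 0.295, 0.0935 and 0.169. DESeq2 called the T-bet- difference (adjusted p = 0.0415), the lowest of 21 alternatives that reached 0.400. Il10rb, the chain shared with the receptors of IL-22 and interferon lambda, stood at 59.5 to 83.8 CPM in spleen cDC1s, 95.3 to 126 CPM in T-bet+ cDC2s and 81.7 to 165 CPM in T-bet- cDC2s. The log2 fold change against cDC1s was 0.68 (SE 0.29) in both, with adjusted p of 0.145 and 0.156. With library class as a term the second was 0.83 and was called (adjusted p = 0.0188). In the MLN Il10rb stood at 71.5 to 114 CPM.

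Il21r, the ligand-binding chain for IL-21, showed the largest called differences of the 10. It stood at 72.4, 49.4 and 114 CPM in spleen cDC1s, 443, 389 and 404 CPM in T-bet+ cDC2s and 338, 254 and 256 CPM in T-bet- cDC2s. The 3 groups did not overlap. Il21r was 5.25-fold higher in T-bet+ cDC2s than in cDC1s (log2 fold change 2.39 with an SE of 0.30, adjusted p = 0.000517) and 3.59-fold higher in T-bet- cDC2s (log2 fold change 1.85, SE 0.29, adjusted p = 0.00231). Both were called in 16 of 16 alternatives, with adjusted p of at most 0.00458 and 0.0175. T-bet+ against T-bet- cDC2s differed by 0.55 on the log2 scale (SE 0.29, adjusted p = 0.352).

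In the MLN Il21r stood at 255, 944 and 981 CPM in cDC1s, 342 and 418 CPM in T-bet+ cDC2s and 568 and 535 CPM in T-bet- cDC2s. The MLN cDC1 libraries lay on both sides of the cDC2 libraries, and replicate 1 was the low one. Without it, T-bet+ cDC2s were called below cDC1s (log2 fold change -1.28, adjusted p = 0.0357). Against the spleen, Il21r was 9.26-fold higher in MLN cDC1s (log2 fold change 3.21, SE 0.43, adjusted p = 0.00111), called in 21 of 21 alternatives with adjusted p of at most 0.0104. Library class was not a term in any of these, and the ratio of Il21r medians of the higher to the lower MLN class was 2.485, with overlap. In T-bet- cDC2s the log2 fold change was 0.97 (SE 0.44, adjusted p = 0.194, and 0.0460 without MLN cDC1 replicate 1) and in T-bet+ cDC2s -0.12 (SE 0.44, adjusted p = 0.894). The cDC1 effect minus the T-bet+ effect, tested after the values were seen, was 3.33 (SE 0.63, adjusted p = 0.0643), and the cDC1 effect minus the T-bet- effect 2.25 (SE 0.61, adjusted p = 0.350). Without MLN cDC1 replicate 1 these were 3.70 (adjusted p = 0.00244) and 2.57 (adjusted p = 0.0237), and over all 21 alternatives of each the adjusted p ranged from 1.746e-09 to 0.208 and from 5.96e-04 to 1. None of the 10 receptor genes passed in either of these edgeR tests, against 0.0893% and 0.0357% of all genes, while 2 and 2 had an unadjusted p under 0.05 (8.48% and 5.9% of all genes). DESeq2 called 2 (Il21r, adjusted p = 2.509e-04, and Il4ra) and 1 (Il4ra), against 1.39% and 0.652% of all genes. In the test of whether the T-bet+ against T-bet- contrast differed between tissues, 0 receptor genes passed by edgeR or DESeq2, against 0.00595% and 0.251% of all genes, and 1 (Il13ra1) had an unadjusted p under 0.05, against 5.04%.

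**Figure D3:**
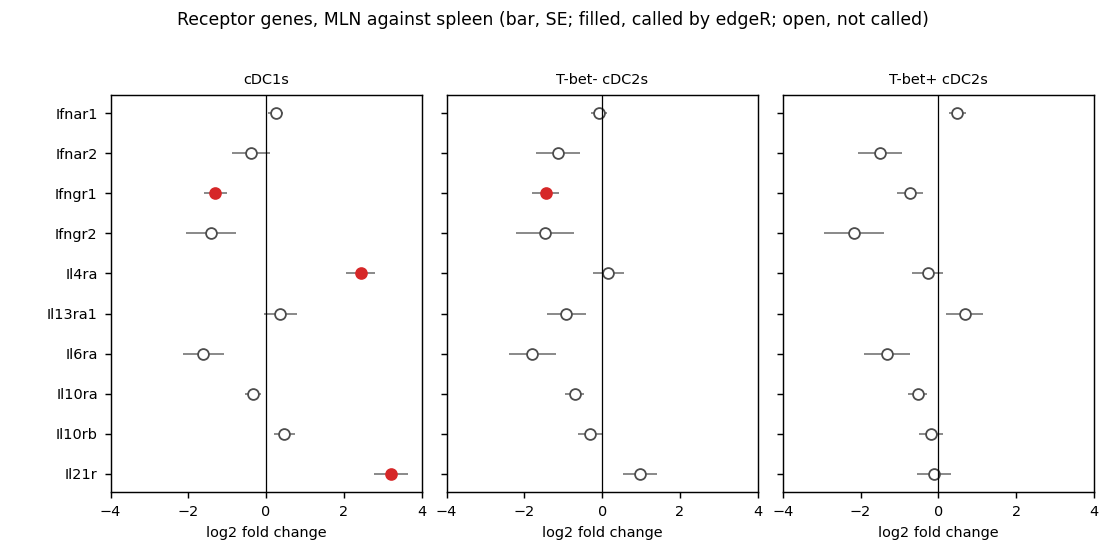
Log2 fold change of each receptor gene from spleen to MLN (horizontal axis) in the 3 subsets; bars are SE, filled points passed an adjusted p under 0.05 by edgeR and open points did not. In cDC1s Il21r (3.21) and Il4ra (2.43) are higher in the MLN and Ifngr1 (-1.31) lower, and in T-bet- cDC2s Ifngr1 (-1.45) is lower.

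MLN cDC1 replicate 1 differed from replicates 2 and 3 in other genes too, named here after their values were seen. Il2rg was at 113 CPM there against 311 and 302 CPM, Stat4 at 42.6 against 153 and 117 CPM, and Il15ra at 120 against 397 and 310 CPM. Xcr1, the cDC1 marker, was at 1219 CPM against 445 and 581 CPM. The library was also the only MLN cDC1 library of the lower GC class, with a rho of -0.0344, and the part of either in the receptor values was not tested.

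Accessible chromatin near the receptor genes was compared in the spleen. Of the 111 windows, each within 50000 bases of its receptor as the closest gene, 106 passed the filter on low counts. To be called, a window needed an adjusted p under 0.01 together with a log2 fold change beyond 0.5 in either direction. Between T-bet+ and T-bet- cDC2s 17 windows were called, 15 higher and 2 lower in T-bet+ cDC2s, or 16.04% of those tested against 6.28% of all 166547 windows tested (3.92% higher and 2.36% lower). Between T-bet+ cDC2s and cDC1s 44 were called, 37 higher and 7 lower in the cDC2s, or 41.5% against 23% of all windows (11% higher and 12% lower). Between T-bet- cDC2s and cDC1s 30 were called, 24 higher and 6 lower, or 28.3% against 17.9% (7.32% higher and 10.6% lower). DESeq2 called 8, 25 and 23 windows at the same limits, against 3.32%, 14.1% and 10.3% of all windows. The median log2 fold change of the receptor windows was 0.21, 0.63 and 0.35, and that of all windows -0.01, -0.01 and 0.01. Windows of one peak can overlap and share reads, so they are not independent of each other.

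Most Il21r windows were more accessible in the cDC2s, where its RNA was higher. Of 10 windows, 7 were higher and 1 lower in T-bet+ cDC2s than in cDC1s, and 7 were higher in T-bet- cDC2s. In the window at the start of Il21r accessibility was 5.70 and 7.58 CPM in cDC1s, 30.8 and 24.7 CPM in T-bet+ cDC2s and 17.8 and 17.3 CPM in T-bet- cDC2s. The 3 subsets did not overlap and stood in the order of the Il21r RNA. The log2 fold change against cDC1s was 2.06 (SE 0.23, adjusted p = 8.331e-12) and 1.40 (SE 0.23, adjusted p = 1.423e-06), called in all 12 alternatives of each. The intronic Il21r window printed above, 16.8 kb inside the gene, held 1.19 and 2.74 CPM in cDC1s, 12.5 and 12.6 CPM in T-bet+ cDC2s and 3.82 and 6.99 CPM in T-bet- cDC2s. It was 6.42-fold higher in T-bet+ cDC2s than in cDC1s (log2 fold change 2.68 with an SE of 0.34, adjusted p = 9.994e-10) and 2.28-fold higher than in T-bet- cDC2s (log2 fold change 1.19, SE 0.29, adjusted p = 0.00221). The latter call was lost without T-bet- replicate 1 (adjusted p = 0.132) and by DESeq2 (adjusted p = 0.0313).

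The neighboring Il4ra had no window within 2000 bases of its start, and 5 of its 7 windows were higher in both cDC2 subsets than in cDC1s. An intronic window 9.4 kb inside Il4ra held 2.26 and 2.22 CPM in cDC1s, 13.3 and 9.20 CPM in T-bet+ cDC2s and 16.4 and 15.5 CPM in T-bet- cDC2s. All cDC2 libraries lay above the cDC1 libraries, 4.99-fold and 7.08-fold by group (log2 fold change 2.32, SE 0.31, adjusted p = 3.202e-09, and 2.82, SE 0.30, adjusted p = 5.206e-12). A window 29.3 kb from the start, between Il4ra and Il21r, was 3.904-fold and 2.77-fold higher than in cDC1s (log2 fold change 1.96, SE 0.18, and 1.47, SE 0.18). These 4 calls held in all 12 alternatives of each.

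**Figure D4:**
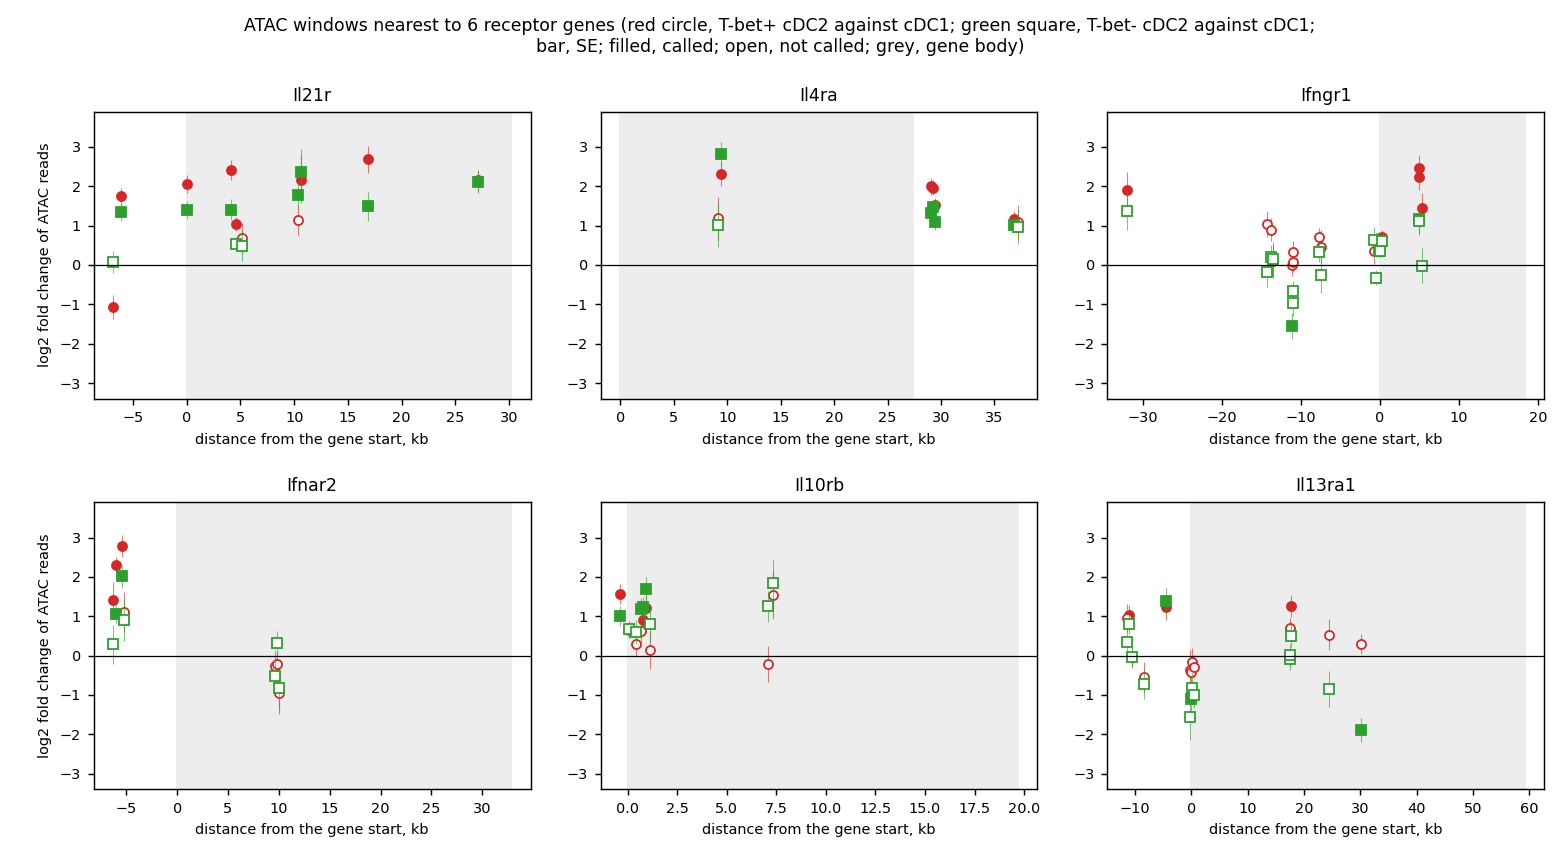
Log2 fold change of ATAC reads against cDC1s (vertical axis) for the windows nearest to 6 receptor genes, by distance from the gene start in kb (horizontal axis), with red circles for T-bet+ and green squares for T-bet- cDC2s, SE bars, filled points for called windows and grey for the gene body. Most Il21r and Il4ra windows lie above 0 for both subsets, the Ifnar2 windows upstream of the gene lie above 0, and the Il13ra1 window at 30.1 kb is low for T-bet- cDC2s (log2 fold change -1.89, against 0.30 for T-bet+ cDC2s).

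On chromosome 16, 3 of 7 tested Ifnar2 windows, all upstream of the gene, were higher in T-bet+ cDC2s than in cDC1s, 2 of them also in T-bet- cDC2s than in cDC1s and 1 also between T-bet+ and T-bet- cDC2s. The last of these, 6.0 kb upstream, held 8.55 and 7.97 CPM in cDC1s, 48.1 and 33.0 CPM in T-bet+ cDC2s and 18.5 and 15.99 CPM in T-bet- cDC2s. The 3 subsets did not overlap. It was 4.90-fold higher in T-bet+ cDC2s than in cDC1s (log2 fold change 2.29 with an SE of 0.21, adjusted p = 1.899e-14), 2.36-fold higher than in T-bet- cDC2s (log2 fold change 1.24, SE 0.19, adjusted p = 2.195e-06) and 2.08-fold higher in T-bet- cDC2s than in cDC1s (log2 fold change 1.06 with an SE of 0.22, adjusted p = 1.151e-04). All 3 calls held in 12 of 12 alternatives. No window lay within 2000 bases of the outermost annotated start of Ifnar2 or Ifnar1. The peak that holds the Ifnar1 windows lay within 2000 bases of the start of another annotated Ifnar1 transcript. Ifnar1 had 2 windows, of which 1, over an exon 5.9 kb inside the gene, was lower in T-bet+ (3.52-fold) and T-bet- cDC2s (2.91-fold) than in cDC1s (log2 fold change -1.82 with an SE of 0.46, adjusted p = 0.00125, and -1.54 with an SE of 0.45, adjusted p = 0.00675). The first call was lost without cDC1 replicate 1 (adjusted p = 0.0184) or T-bet+ replicate 1 (0.0114) or 2 (0.0131), and the second without either cDC1 library (0.0585 and 0.0309) or either T-bet- library (0.0476 and 0.0403). Both were lost by DESeq2 (adjusted p = 0.0301 and 0.0831). Between the cDC2 subsets, where Ifnar1 RNA differed, this window did not pass (log2 fold change -0.28, SE 0.54, adjusted p = 0.818).

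Il10rb, just downstream of Ifnar2, had 4 of 9 tested windows higher in each cDC2 subset than in cDC1s. The window printed above, 7.1 kb inside the gene, was 1 of the 2 receptor windows called lower in T-bet+ cDC2s when set against T-bet- cDC2s. It held 1.901 and 1.96 CPM in cDC1s, 2.18 and 1.15 CPM in T-bet+ cDC2s and 3.45 and 5.67 CPM in T-bet- cDC2s. Between the cDC2 subsets its log2 fold change was -1.47 (SE 0.40, adjusted p = 0.00841), lost without T-bet+ replicate 2 (adjusted p = 0.138) or T-bet- replicate 2 (0.228), with a replicate block (0.0130), with only the 2 subsets compared (0.0117) and by DESeq2 (0.101). For Ifngr2, a window over an exon 14.7 kb inside the gene was 2.86-fold and 2.77-fold lower in T-bet+ and T-bet- cDC2s than in cDC1s (log2 fold change -1.52, SE 0.22, and -1.47, SE 0.22), and the next, 15.0 kb inside, was 2.11-fold above T-bet- cDC2s in T-bet+ cDC2s (log2 fold change 1.08, SE 0.18, adjusted p = 1.062e-05). The peak that holds these 2 windows lay within 2000 bases of the start of another annotated Ifngr2 transcript. The window at the outermost Ifngr2 start stood at 21.5 and 21.6 CPM in cDC1s and 29.5 to 40.5 CPM in the cDC2s. It was called higher than in cDC1s in T-bet+ (log2 fold change 0.70, SE 0.18, adjusted p = 0.00150) and T-bet- cDC2s (0.67, SE 0.18, adjusted p = 0.00322). Over the alternatives these adjusted p reached 0.0801 and 0.0425. The ATAC libraries are other libraries than those of the RNA and were given no GC class, so they cannot be set against the split in Ifngr2 RNA.

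Ifngr1 had 18 windows, of which T-bet+ cDC2s had 7 above T-bet- cDC2s and 8 above cDC1s. The intronic window printed above held 2.26 and 1.83 CPM in cDC1s, 14.0 and 8.57 CPM in T-bet+ cDC2s and 5.67 and 3.44 CPM in T-bet- cDC2s. The 3 subsets did not overlap. It was 5.48-fold higher in T-bet+ cDC2s than in cDC1s (log2 fold change 2.45 with an SE of 0.34, adjusted p = 1.431e-08), and 2.50-fold higher than in T-bet- cDC2s (log2 fold change 1.32, SE 0.30, adjusted p = 0.00106), the latter lost without T-bet+ replicate 1 (adjusted p = 0.106) or T-bet- replicate 2 (0.0890) and by DESeq2 (0.0208). At the start of Ifngr1 the log2 fold change against cDC1s was 0.68 (SE 0.15, adjusted p = 1.494e-04) in T-bet+ cDC2s, and scaling by library size only took it to 0.497, under the fold limit. Ifngr1 RNA was lower in T-bet+ cDC2s than in cDC1s.

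The Il13ra1 windows differed in direction among themselves. The printed Il13ra1 window, 30.1 kb inside the gene, held 9.62 and 12.2 CPM in cDC1s, 15.2 and 11.6 CPM in T-bet+ cDC2s and 2.096 and 3.64 CPM in T-bet- cDC2s. The T-bet- libraries lay below all others, 4.57-fold below T-bet+ cDC2s (log2 fold change of T-bet+ against T-bet- 2.19, SE 0.29, adjusted p = 3.671e-08) and 3.71-fold below cDC1s (log2 fold change -1.89, SE 0.30, adjusted p = 5.57e-07), each in 12 of 12 alternatives. At the start of Il13ra1 T-bet- cDC2s were again lower than cDC1s (log2 fold change -1.11, SE 0.31, adjusted p = 0.00434), a call lost without cDC1 replicate 1 (adjusted p = 0.0210) or 2 (0.0347) or T-bet- replicate 2 (0.184) and by DESeq2 (0.0419). Il13ra1 RNA was highest in T-bet- cDC2s. A window 4.4 kb upstream was higher in both cDC2 subsets than in cDC1s (log2 fold change 1.23, SE 0.31, and 1.40, SE 0.31). These were lost without cDC1 replicate 1 (adjusted p = 0.0138) or 2 (0.0204) or T-bet+ replicate 1 (0.0184), and without T-bet- replicate 2 (0.0140).

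Il6ra had 5 of 15 windows called in any comparison and Il10ra 2 of 14. Of 15 Il6ra windows 2 were higher and 3 lower in T-bet+ cDC2s than in cDC1s, and 1 was higher in T-bet- cDC2s. The printed Il6ra window, 25.4 kb inside the gene, held 2.50 and 2.87 CPM in cDC1s, 11.2 and 8.99 CPM in T-bet+ cDC2s and 3.95 and 3.95 CPM in T-bet- cDC2s. T-bet+ cDC2s were 2.55-fold above T-bet- cDC2s (log2 fold change 1.35, SE 0.30, adjusted p = 7.84e-04), lost without T-bet+ replicate 1 (adjusted p = 0.0217), T-bet- replicate 1 (0.0139) or T-bet- replicate 2 (0.0181), and 3.75-fold above cDC1s (log2 fold change 1.91, SE 0.32, adjusted p = 1.453e-06). Another, 8.0 kb inside, was higher in both cDC2 subsets than in cDC1s (log2 fold change 2.07, SE 0.52, and 2.81, SE 0.49), the first lost without cDC1 replicate 1 (adjusted p = 0.0629) or T-bet+ replicate 2 (0.0129) and by DESeq2 (0.0159). A window 10.8 kb inside, with at most 18 reads in any library, held 1.19 and 1.44 CPM in cDC1s, 0.218 and 0 CPM in T-bet+ cDC2s and 0.370 and 1.82 CPM in T-bet- cDC2s. It was called lower in T-bet+ cDC2s than in cDC1s (adjusted p = 0.00306), lost without cDC1 replicate 1 (0.0101) or 2 (0.0245) or T-bet+ replicate 2 (0.0621), and did not pass against T-bet- cDC2s (adjusted p = 0.0164), whose libraries lay on both sides of those of cDC1s. Of 14 Il10ra windows 1 was lower in T-bet+ and 1 higher in T-bet- cDC2s than in cDC1s. The Il10ra start window stood at 15.8 to 21.7 CPM in all 6 libraries, with log2 fold changes of 0.11 (SE 0.21) and 0.07 (SE 0.21) against cDC1s.

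**Figure D5:**
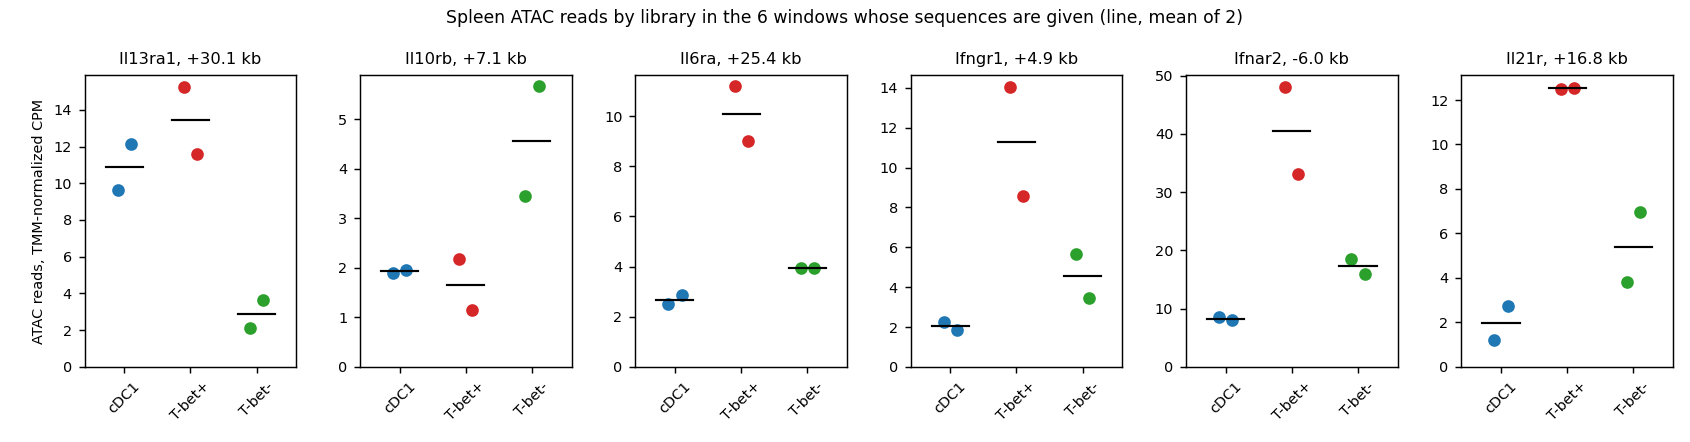
ATAC reads in each spleen library, in TMM-normalized CPM on the vertical axis, for the 6 windows whose sequences are given, by subset on the horizontal axis; lines are means of 2 libraries. The T-bet+ cDC2 libraries are above all others at the Il6ra, Ifngr1, Ifnar2 and Il21r windows, and the T-bet- cDC2 libraries are lowest at Il13ra1 and highest at Il10rb.

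The chains, kinases, STATs and inhibitors that these receptors share were read from a list of 22 genes, all of which were tested. In the spleen T-bet+ cDC2s had 2 above and 0 below T-bet- cDC2s, 9.09% of the list, where 1.95% of all genes tested were higher and 3.44% lower. Both take part in interferon signaling: Usp18, an interferon-induced inhibitor that acts at IFNAR2, rose by 1.07 on the log2 scale (SE 0.20, adjusted p = 0.0143) and Jak2, the kinase of IFNGR2, by 0.87 (SE 0.21, adjusted p = 0.0490). Against cDC1s 5 were higher and 1 lower in T-bet+ cDC2s (all genes 9.97% and 8.2%), and 4 higher and 1 lower in T-bet- cDC2s (all genes 9.65% and 6.2%). Il2rg, the common gamma chain that IL-21R needs, stood at 41.8, 35.4 and 70.1 CPM in spleen cDC1s, 409, 414 and 413 CPM in T-bet+ and 670, 601 and 542 CPM in T-bet- cDC2s. The groups did not overlap, and the log2 fold change was 3.07 (SE 0.27, adjusted p = 5.7e-05) and 3.62 (SE 0.28, adjusted p = 2.682e-05). Stat4 (3.73 and 3.02) and the phosphatase Ptpn6 (1.91 and 1.69) were higher in both cDC2 subsets, Usp18 (1.64) in T-bet+ and Cish (2.598) in T-bet- cDC2s. Tyk2, the kinase of IFNAR1, fell by 1.32 and 1.29 on the log2 scale. The median log2 fold change of the 22 was 0.01, 0.27 and 0.40 in these 3 comparisons, against -0.01, 0.03 and -0.01 for all genes.

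Between MLN and spleen the shared genes that changed were all higher in the MLN. In cDC1s 9 of 22 were higher, as were 5 in each cDC2 subset, with 0 lower in any subset. In the order cDC1s, then T-bet- cDC2s, then T-bet+ cDC2s, 7.75%, 4.36% and 3.79% of all genes were higher and 3.93%, 1.59% and 1.3% lower. The medians of the 22 were 0.95, 0.34 and 0.43 against 0.01, -0.04 and 0.00 for all genes. Socs2, an inhibitor induced by STAT5, rose by 3.65 (SE 0.64), 4.09 (SE 0.68) and 2.78 (SE 0.65), and Usp18 by 2.74 (SE 0.30), 2.74 (SE 0.31) and 1.60 (SE 0.31). Stat4 rose by 4.95 (SE 0.57) in cDC1s and 1.98 (SE 0.53) in T-bet- cDC2s, Il2rg by 2.30 (SE 0.34) in cDC1s and Tyk2 by 2.02 (SE 0.40) in T-bet- cDC2s. Jak2 rose by 1.45 (SE 0.25), 1.86 (SE 0.27) and 1.36 (SE 0.27) in the order above. Il2rg, Stat4 and Il21r are also expressed by T cells, whose markers differed between the tissues as given above, and the part of such cells was not tested. Within the MLN 0 of 22 passed edgeR's test in any of the 3 comparisons of subsets, against 0%, 6.22% and 5.79% of all genes. At an unadjusted p under 0.05 they counted 1, 3 and 4, against 9.44%, 22.2% and 19.6% of all genes. DESeq2 called 0, 1 and 2, against 1.98%, 11.8% and 9.84%.

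Related receptors were read from a second list of 22 genes, of which 21 were in the table and 16 reached a mean of at least 1 CPM in some group. The most abundant were Il15ra, Il7r, Il2ra, Crlf2 (the TSLP receptor chain), Il12rb2 and Il27ra. Il15ra, Il7r and Il2ra were higher in the MLN in all 3 subsets. Il15ra, which presents IL-15, stood at 20.8, 22.0 and 39.7 CPM in spleen cDC1s and 120, 397 and 310 CPM in MLN cDC1s, and its log2 fold change was 3.32 (SE 0.58) in cDC1s, 3.87 (SE 0.62) in T-bet- and 3.60 (SE 0.62) in T-bet+ cDC2s. Il7r rose by 4.33 (SE 0.82), 4.62 (SE 0.86) and 4.40 (SE 0.85), and Il2ra by 5.07 (SE 0.93), 4.37 (SE 0.86) and 4.44 (SE 0.88). In all, 6, 5 and 3 of 18 tested were higher and 0 lower, in the same order of subsets, where 7.75%, 4.36% and 3.79% of all genes were higher. Il7r and Il2ra are also T cell genes, and the part of T cells in these values was not tested.

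Between subsets of the spleen, 1 of 16 related receptors tested was called between T-bet+ and T-bet- cDC2s, lower in the former, as were 3.44% of all genes (Il11ra1, named after its values were seen, 5.29 against 16.2 CPM by group mean, log2 fold change -1.61, SE 0.33). Against cDC1s 4 were higher and 3 lower in T-bet+ cDC2s (all genes 9.97% and 8.2%), and 5 higher and 1 lower in T-bet- cDC2s (all genes 9.65% and 6.2%). Il27ra, the IL-27 receptor chain, was higher in both (log2 fold change 3.19, SE 0.41, and 3.56, SE 0.41), at group means of 11.6 and 15.0 CPM against 1.27 CPM. Il15ra was lower in T-bet+ cDC2s (-1.57, SE 0.32). In the MLN 0 of 17 tested were called between the cDC2 subsets, where 0% of all genes were called. There 5 had an unadjusted p under 0.05 (9.44% of all genes) and DESeq2 called 1 (1.98% of all genes). Against cDC1s, 1 was higher and 1 lower in T-bet+ cDC2s (all genes 4.11% and 2.11%). In T-bet- cDC2s 3 were higher and 0 lower (all genes 4.34% and 1.44%), among them Il27ra (1.70, SE 0.39) and Il2ra (2.90, SE 0.66).

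Il6 was the one listed ligand gene above 1 CPM in every library. Of 12 ligand genes listed, 7 were in the table, and 5 of these (Ifna1, Ifnb1, Ifnl2, Ifnl3 and Il4) stayed under 1 CPM in all 16 libraries. Il10 reached at most 3.06 CPM. Of Il6 and Il10, the 2 tested, Il6 was higher in the MLN than in the spleen in both cDC2 subsets. Il6 stood at 3.45 to 9.59 CPM in the spleen and 5.03 to 39.3 CPM in the MLN, the highest values being in MLN T-bet+ (15.7 and 39.3 CPM) and T-bet- cDC2s (24.0 and 23.6 CPM).

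The 4 receptor genes called in the most comparisons of subsets were set against 8059 genes with a mean of at least 10 CPM, by Pearson correlation of log2 CPM over the 16 RNA libraries. The libraries share tissue, subset and GC class, so the values describe likeness only. Ifnar1 was most like Ccr2 (r = 0.914), Klrk1 (0.899) and Ahnak (0.893). Il21r was most like Pdcd1lg2 (0.952), Cercam (0.944) and Traf1 (0.937). Ifngr1 was most like Gm2a (0.985), Polr1e (0.954) and Havcr2 (0.952), and Il13ra1 most like Rasgrp1 (0.819), Nxpe4 (0.805) and Il6st (0.796), the last being the gp130 chain. Among the receptors themselves, Il21r had r = 0.744 with its neighbor Il4ra and -0.791 with Ifngr1, while Ifnar1 had r = -0.516 with Ifnar2, the other chain of its receptor.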

How the data were processed

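RNA was sequenced in 16 libraries and accessible chromatin in 6. The labels list 1 more MLN cDC1 library than the methods describe, and all were used. Cells were gated as lineage-, CD64-, Ly6C-, CD11c+ and MHCII+. The authors aligned RNA reads with HISAT2 2.1.0 and counted them per gene with Rsubread on GENCODE annotation, and the deposited values are raw counts. ATAC reads were aligned with Bowtie2 2.2.5, shifted for the transposase, and counted in windows of 150 bases around peak summits called by MACS2 2.1.1.20160309 on all replicates together. The deposited window values are raw counts too, and the deposited peak position files hold a score of 0 throughout and, per summit, a MACS2 -log10 p, neither used in a test. Here, counts were filtered by expression and normalized by TMM, giving CPM, and tested in edgeR 4.0.16 (quasi-likelihood, R 4.3.3) with Benjamini-Hochberg adjustment over all features. The spleen and MLN were fitted apart, and the 16 RNA libraries jointly for tissue. Tested alternatives were DESeq2 1.42.0, other normalization and filters, replicate blocks, only the compared subsets, thresholds, whole peaks, and leaving out each library. Library GC class was a further alternative in the spleen and MLN RNA fits but not in the joint fit. The self-test used simulated counts. P-values measure the spread between libraries, which for RNA pooled 2 mice each, with 6, 4, 10 and 3 residual degrees of freedom for spleen, MLN, joint and ATAC fits. Windows belong to their closest gene within 50000 bases. The main fits used no pairing. Samples with the same replicate number did not deviate together in every pair, which does not show that libraries were unpaired. For MLN T-bet- cDC2s the replicate numbers also differ from the numbers in the library names, so each kind of number was used as a block among the alternatives. The genes described were named by rules on call, fold change and level, and the values of 1 listed gene are not reported here. The receptor genes and lists were chosen with earlier results of these data known.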

Additional observations from a re-analysis of the deposited data

Results flagged for a closer look

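In 3 cases the libraries of 2 subsets did not overlap in either tissue and stood in opposite order in the spleen and the MLN. The share of all genes that meet this rule was not counted, and groups of 2 or 3 libraries can fail to overlap without a difference. The 3 cases are therefore described only. The Il21r difference between T-bet+ and T-bet- cDC2s was 1.08 on the log2 scale (SE 0.63) higher in the spleen than in the MLN. Its adjusted p was 0.949 by edgeR and 0.877 by DESeq2, so it did not pass. The Il4ra difference between T-bet+ cDC2s and cDC1s was 2.70 (SE 0.56) higher in the spleen than in the MLN, with an adjusted p of 0.0954 by edgeR and 0.00239 by DESeq2. The Il4ra difference between T-bet- cDC2s and cDC1s was 2.27 (SE 0.55) higher in the spleen, with an adjusted p of 0.247 by edgeR and 0.0245 by DESeq2. Without MLN cDC1 replicate 1, the lowest of its group, the Il4ra differences had adjusted p of 0.00681 and 0.0295 by edgeR, and over 21 alternatives of each these ranged from 2.873e-06 to 0.259 and from 4.13e-04 to 1.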

How the results depend on the processing

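No gene or window changed direction while called. Of 2310 alternative values for single genes, 31 lost a call and 63 gained one, and of 1220 for windows 117 lost and 27 gained. Whether called or not, 87 of the gene values and 26 of the window values changed sign. Receptor genes called in the spleen between T-bet+ and T-bet- cDC2s (1) became 2 with no filter or with library class and 0 at an adjusted p of 0.01. Between T-bet+ cDC2s and cDC1s 3 became 5 with library class and 1 at 0.01, and between T-bet- cDC2s and cDC1s 2 became 6, 1 at 0.01 and 1 with only the compared subsets. In the MLN 0 became 1 by DESeq2 and 2 with no filter for T-bet+ cDC2s against cDC1s, and 1 and 1 for T-bet- cDC2s. Between tissues 3 became 5 with no filter in cDC1s, 1 became 3 by DESeq2, 5 with no filter and 0 at 0.01 in T-bet- cDC2s, and 0 became 1 and 3 in T-bet+ cDC2s. The tissue differences against cDC1s, 0 each, became 2 and 2 for T-bet+ and 1 and 2 for T-bet- cDC2s by DESeq2 and with no filter. ATAC windows fell from 17 to 8 and from 44 to 25 by DESeq2 and from 44 to 24 over whole peaks, and 30 rose to 47 at an adjusted p of 0.05 with no fold limit. The causes were not tested.

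Leaving out 1 library gave 0 to 1, 1 to 4 and 1 to 2 receptor genes in the 3 spleen comparisons, 0 to 0, 0 to 2 and 0 to 1 in the MLN, and 2 to 5, 0 to 2 and 0 to 2 between tissues, in the order cDC1s, then T-bet- cDC2s, then T-bet+ cDC2s. It gave 0 to 0, 0 to 2 and 0 to 2 for the tissue differences, and 7 to 16, 26 to 45 and 22 to 42 windows.

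With the replicate number as a block the spleen counts were 0 and 1 for T-bet+ against T-bet- cDC2s and T-bet- cDC2s against cDC1s, and with the number in the MLN library names as a block 3 and 2 for T-bet+ and T-bet- cDC2s against cDC1s. Correlations of libraries with the same replicate number were -0.74 to 0.431 in the spleen, -0.137 to 0.657 in the MLN and -0.206 to 0.114 for ATAC. Between MLN libraries with the same number in their names they were -0.014 to 0.657. With 2 or 3 libraries per group, a difference that missed the threshold is not shown to be absent.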
